A study of Mus musculus with 3 samples.

Results

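The extracellular matrix and tendon genes described here are a set of 34 genes that encode collagens, proteoglycans, matrix glycoproteins and fibres, crosslinking and turnover enzymes, matricellular proteins and markers of tendon. They were found on the array by the RefSeq accession of each probe, and all 34 had at least 1 probe, 42 of 55681 probes in all. RNA came from SOL (read here as soleus) muscle of male C57BL/6 mice, 8 weeks old, on regular chow. On each of 3 arrays 1 wild-type (WT) sample labelled with Cy3 was set against 1 sample from mice of genotype Mettl21cLacZ/LacZ (KO), with a LacZ insertion allele of the methyltransferase gene Mettl21c on both chromosomes, labelled with Cy5. Dyes were never swapped, so a dye effect and the genotype cannot be told apart. The labels call the arrays biological replicates and do not say whether animals were pooled. Of the 34 genes 23 could be tested, of 7424 genes or unnamed transcripts over the whole array.

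Muscle is held together by a collagen network around fibres and bundles, which passes its force to the tendon. Fibrillar collagens carry the load, small leucine-rich proteoglycans set the width and spacing of their fibrils, and lysyl oxidases crosslink them. Tenocytes express the transcription factors scleraxis and mohawk, the membrane protein tenomodulin and the pentameric glycoproteins Comp and Thbs4. In a whole muscle these genes report on connective tissue and on tendon left at the ends, and fewer cells of a type cannot be told apart from less RNA per cell.

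The third array differed from the others over part of its surface, and this bears on the genes that follow. The cause was not tested. In its columns 1 to 80 of 164, which hold 28959 spots or 48.8% of all non-control spots, spot intensities correlated with the other arrays at 0.47 to 0.88 by block of 10 columns, against 0.92 to 0.97 in nearly all other blocks (0.89 to 0.91 in columns 81 to 90). Arrays 1 and 2 correlated with each other at 0.95 to 0.98 in every block. In rows 257 to 384 of columns 1 to 60, array 3 matched the next row of the other arrays (r = 0.40) more closely than the same row (r = 0.33). In rows 1 to 128 and 129 to 256 of these columns the same row matched better (r = 0.73 and 0.64) than the next row (r = 0.22 and 0.31). Of 14 bright corner control spots, 7 exceeded an intensity of 100 in the WT channel of array 3, against 14 on each other array. Values below are with all spots, and the main counts and the genes with array 3 spots there are also given with columns 1 to 80 of array 3 left out, an alternative chosen after seeing the data. Of the 23 genes tested, 6 had every spot in these columns (Col4a2, Col6a1, Lum, Loxl1, Ctgf and Comp), and Tnmd and Col4a1 had 9 and 4 of their 10 spots there.

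**Figure D1:**
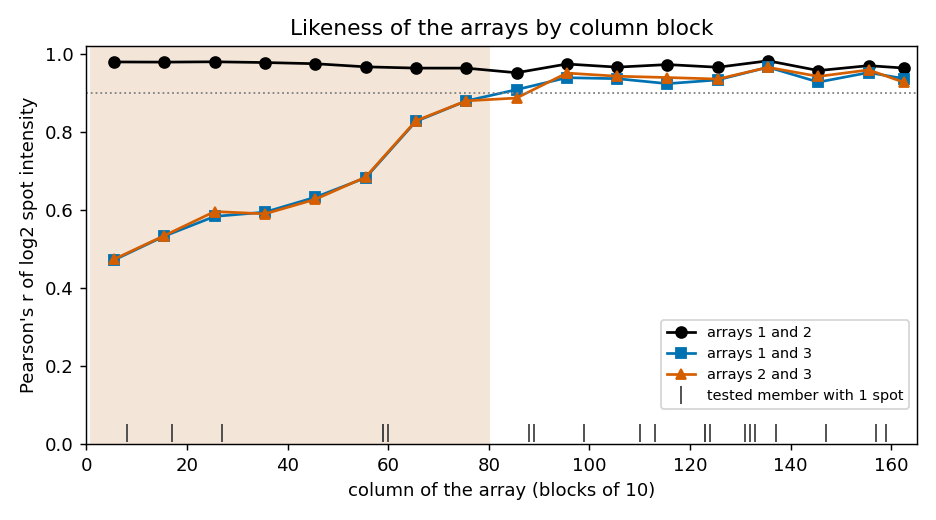
Pearson's r of log2 spot intensity between pairs of arrays in blocks of 10 columns, with ticks for the columns of the tested genes that have 1 spot. Pairs with array 3 climb from 0.47 in columns 1 to 10 to 0.88 in columns 71 to 80 (shaded), while arrays 1 and 2 stay at 0.95 to 0.98.

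Signals of some single genes with spots in these columns differed widely between array 3 and the others. Dcn, which encodes decorin, a proteoglycan that coats collagen fibrils, had processed signals (background-subtracted and dye-normalised by the scanner software) of 17700 and 21770 in WT on arrays 1 and 2 and 416 on array 3, and of 12660, 15900 and 157 in KO. The brightest probe of Col15a1, a basement membrane collagen, went the other way, from 22.8 and 27.8 to 364 in WT and from 24.5 and 33.6 to 459 in KO. Both spots lie in columns 1 to 80, and neither gene was tested with all spots.

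The genotype check was clear. Mettl21c itself had WT signals of 7527, 3677 and 4486 and KO signals of 200, 32.3 and 45.5 on arrays 1 to 3, with no overlap, and was well above background on 1 of 3 KO channels. Its mean log2 ratio of KO over WT was -2.45 (SD 0.48, n = 3; limma adjusted p = 0.0175), and its spot lies outside columns 1 to 80.

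Ratios below are log2 of KO over WT, 1 per array, after a background correction that adds 50 intensity units, which shrinks the ratios of dim genes, and a loess fit within each array. Leaving columns 1 to 80 out refits loess on array 3, so genes with spots elsewhere shift there too. The array 3 ratio went from 0.47 to 0.35 in Col1a2, from -0.07 to -0.18 in Fmod and from 0.52 to 0.46 in Thbs4. The signals printed beside them are the scanner software's, with its own background and dye handling, so their quotient can differ from the ratio. None of the 23 genes passed at an adjusted p of 0.05 in limma, where 3 of 7424 passed over the array (0.0404%). At an unadjusted p under 0.05 there were 3 of 23 (13%, all lower in KO), namely Fmod, Col6a2 and Comp, beside 13.4% of all genes in either direction and 7.53% lower. Bright genes reach such p-values more often in this fit, 27.7% of them in the top 25% of all genes by intensity, which holds 6 of the 23. With columns 1 to 80 of array 3 left out, 26 of the 34 could be tested and 0 passed, beside 0.881% of all genes, and the same 3 genes had an unadjusted p under 0.05 (3 of 26, beside 8.96% of all genes lower). A fit whose spread follows brightness called 85 genes over the array (1.14%) and 0 of the 23. Centring each array on its median in place of loess called 8 of the 23 (34.8%), beside 35.8% of all genes.

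The arrays did not give 1 direction. On both arrays 1 and 2, 15 of the 23 genes (65.2%) had a ratio below 0, against 33.7% of all genes tested. On array 3, 19 of the 23 (82.6%) had a ratio above 0, against 55.3%, and with columns 1 to 80 left out 13 of 17 (76.5%), against 51.3%. Together 13 genes (56.5%) were below 0 on arrays 1 and 2 and above 0 on array 3, against 15.4% of all genes, and with columns 1 to 80 left out these were 10 of 17 (58.8%) against 14.9%. Among the top 25% of genes by intensity the share with this pattern was 15.9%. A ratio above 0.3 on array 3 was found in 8 of the 23 (34.8%), against 9.87% of all genes and 21.7% of those bright ones, and in 5 of 17 (29.4%) against 7.6% with columns 1 to 80 left out. Over the 23 the median ratio was -0.09 on array 1, -0.20 on array 2 and 0.10 on array 3, where those of all genes were -0.01, -0.02 and 0.02. Across the 23 genes the ratios of arrays 1 and 2 correlated at 0.56, and those of array 3 correlated with array 1 at -0.08 and with array 2 at 0.09. Over all genes these values were 0.35, 0.21 and 0.33. With columns 1 to 80 left out they were 0.53, 0.21 and 0.01 for the genes of the set and 0.36, 0.26 and 0.40 for all genes, so the sign of the -0.08 turned. These are descriptions over genes that share arrays and samples. A gene was tested if 1 channel was well above background on all 3 arrays. Eln, Mkx and Tnmd met this through KO only and were above 0 on array 3. Col4a2 met it through WT only and was below 0 there. The counts above include these genes.

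**Figure D2:**
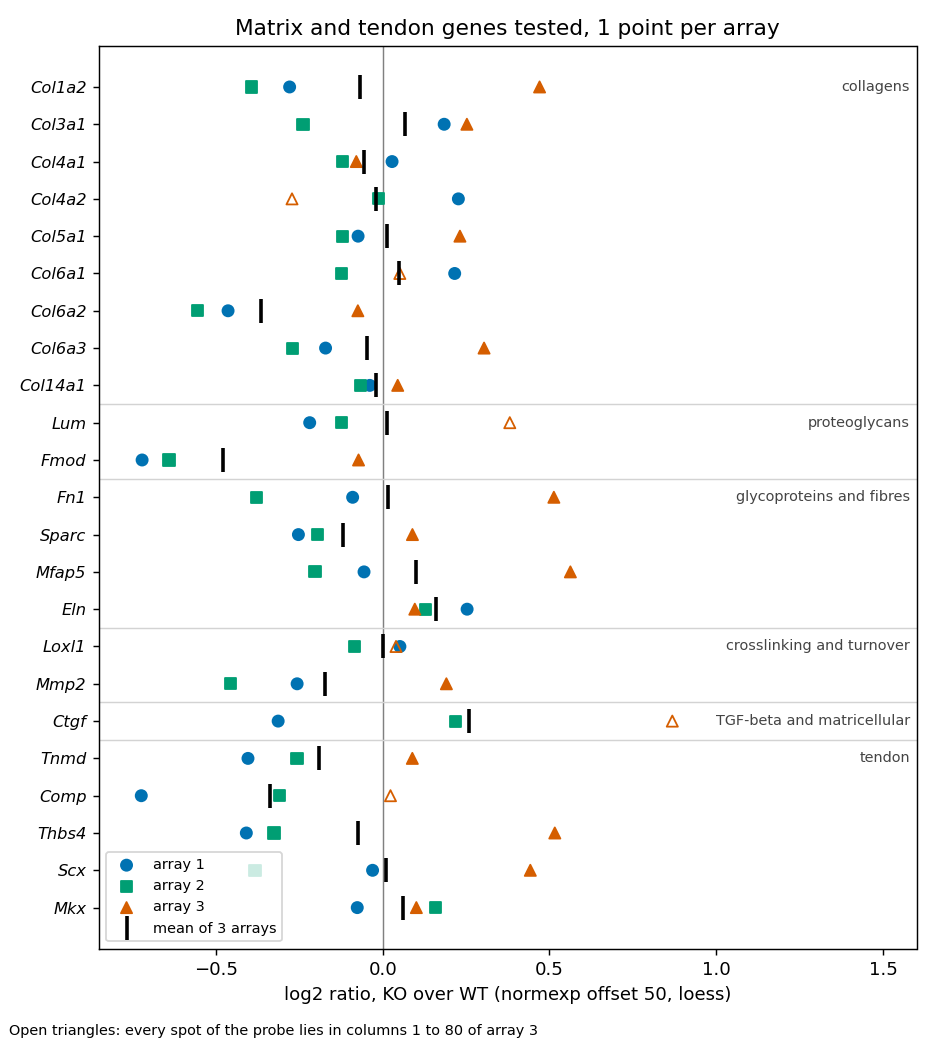
Log2 ratio of KO over WT for the 23 genes tested, with 1 point per array, the mean as a bar and roles divided by lines. For 13 genes the points of arrays 1 and 2 lie left of 0 and that of array 3 lies right of 0, and open triangles are array 3 values of the 6 genes with every spot in columns 1 to 80.

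The promoter sequences of Fmod, Tnmd and Thbs4, tendon-associated genes that were below 0 together on arrays 1 and 2, show the region just before their start. They are the 250 bases upstream of the RefSeq transcript start in GRCm38.p6, written 5′ to 3′ on the gene's strand, with the E box CANNTG in capitals, the letters that bind basic helix-loop-helix factors such as scleraxis. Fmod lies at chr1:134037004-134037253 on the plus strand, Tnmd at chrX:133850758-133851007 on the plus strand and Thbs4 at chr13:92794819-92795068 on the minus strand.
Fmod: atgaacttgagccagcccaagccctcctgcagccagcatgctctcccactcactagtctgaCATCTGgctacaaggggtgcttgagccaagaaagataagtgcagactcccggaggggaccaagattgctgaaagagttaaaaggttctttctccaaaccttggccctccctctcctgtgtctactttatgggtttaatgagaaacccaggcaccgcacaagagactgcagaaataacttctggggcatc
Tnmd: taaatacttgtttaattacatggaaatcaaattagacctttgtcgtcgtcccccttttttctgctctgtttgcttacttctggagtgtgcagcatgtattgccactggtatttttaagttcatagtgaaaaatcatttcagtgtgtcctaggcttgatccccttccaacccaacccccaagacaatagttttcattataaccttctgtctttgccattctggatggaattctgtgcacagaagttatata
Thbs4: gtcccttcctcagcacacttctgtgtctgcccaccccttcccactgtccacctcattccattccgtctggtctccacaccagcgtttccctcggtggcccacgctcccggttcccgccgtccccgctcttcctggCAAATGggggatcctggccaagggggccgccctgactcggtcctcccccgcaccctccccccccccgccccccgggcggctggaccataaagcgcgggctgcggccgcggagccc
The Fmod window holds 1 E box, starting 189 bases before the transcript start, the Thbs4 window holds 1 at 115 bases, and the Tnmd window holds 0. The E box pattern CANNTG reads the same on both strands, though the letters at NN can differ. It was found in 66.2% of 32851 promoter windows of this length and in 7 of 20 windows (35.0%) of the 18 genes of the set that matched the promoter table. TATAAA, searched on both strands and unable to overlap an E box, was in 12.4% of all windows, in 2 of the 20, and in 0 of the 3 shown.

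Among the collagens, 9 of 12 genes were tested and 0 passed. Their median ratio was -0.04 on array 1, -0.12 on array 2 and 0.05 on array 3, or 0.17 over the 7 with array 3 values when columns 1 to 80 were left out. Col6a2, a chain of the beaded collagen VI around muscle fibres, had WT signals of 5194, 2115 and 1351 and KO signals of 3871, 1800 and 1184. KO was below WT on each array, and the groups overlapped because the level differed more between arrays than between channels. Its ratios were -0.46, -0.55 and -0.07 (mean -0.36, SD 0.25, 95% interval -0.61 to -0.12; limma adjusted p = 0.212, and 0.0824 with columns 1 to 80 left out). A second Col6a2 probe was never well above background.

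The other collagen VI chains did not follow the same order. Col6a1 had WT signals of 12230, 7530 and 5653 and KO signals of 12220, 6308 and 5526, with ratios of 0.22, -0.12 and 0.05, the last from a spot in columns 1 to 80, without which its mean was also 0.05. Col6a3 had 1861, 1435 and 827 in WT and 1729, 1053 and 1233 in KO, with ratios of -0.17, -0.27 and 0.30. These 3 chains assemble into 1 molecule, and their means were 0.05, -0.36 and -0.05 for Col6a1, Col6a2 and Col6a3. Col6a2 had the lowest ratio of the 3 on each array. The separate intervals of the means overlap, but they leave out that the chains share arrays, and the difference between chains was not tested.

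Of the fibrillar collagens, Col1a2, a chain of collagen I, had WT signals of 25360, 18260 and 9358 and KO signals of 19300, 13850 and 13250. It was lower in KO on arrays 1 and 2 and higher on array 3, with ratios of -0.28, -0.39 and 0.47 (mean -0.07, SD 0.47, 95% interval -0.45 to 0.32; limma adjusted p = 0.901). Its spot lies outside columns 1 to 80, and on arrays 1 and 2 alone, set apart after their values were seen, its mean was -0.34 (limma adjusted p = 0.136). Its partner chain Col1a1 was read by a dim probe in columns 1 to 80, with 371, 210 and 20.7 in WT and 210, 153 and 25.7 in KO, and its mean over arrays 1 and 2 was -0.08.

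Col3a1, which forms thin fibrils beside collagen I, had WT signals of 2576, 1562 and 435 and KO signals of 3205, 1496 and 738, with ratios of 0.18, -0.24 and 0.25. Col5a1, which starts fibril assembly, had 1976, 892 and 611 in WT and 1960, 814 and 893 in KO, with ratios of -0.07, -0.12 and 0.23. Both groups overlapped in each gene, with adjusted p of 0.846 and 0.970. Col5a2, its partner chain, stayed at signals of 22.5 to 77.0, never well above background.

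Col4a1, a basement membrane collagen read by 10 spots on each array, had ratios of 0.03, -0.12 and -0.08 (mean -0.06, SD 0.08, 95% interval -0.22 to 0.11; limma adjusted p = 0.783, or -0.07 and 0.707 with columns 1 to 80 left out). Col4a2, its partner in the same heterotrimer, had 341, 106 and 700 in WT and 492, 70.3 and 477 in KO, the last of each from a spot in columns 1 to 80, and its mean was 0.11 on arrays 1 and 2 and -0.02 on all 3. Col14a1, which sits on fibril surfaces, had ratios of -0.04, -0.07 and 0.05 from its bright probe, and its other probe was not well above background.

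Of the proteoglycans, 2 of 4 were tested. Fmod encodes fibromodulin, which binds collagen fibrils and is abundant in tendon. Its WT signals were 10010, 6129 and 4455 and its KO signals 6039, 3818 and 4098. KO was lower within each array, by little on array 3, and the groups overlapped. The ratios were -0.72, -0.64 and -0.07 (mean -0.48, SD 0.35, 95% interval -0.79 to -0.17; limma adjusted p = 0.192). Its spot lies outside columns 1 to 80, and the adjusted p was 0.0721 with those columns left out and 0.0557 on arrays 1 and 2 alone, where the mean was -0.68. Arrays 1 and 2 were set apart after their values were seen.

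Lum, encoding lumican, a relative of fibromodulin, had WT signals of 7509, 7708 and 7010 and KO signals of 6056, 7420 and 9044. Its ratios were -0.22, -0.12 and 0.38, and its array 3 spot is in columns 1 to 80. Without that value the mean turned from 0.01 to -0.17 (limma adjusted p = 0.386). Bgn, encoding biglycan, had 313, 471 and 50.1 in WT and 159, 136 and 56.3 in KO and was above background on arrays 1 and 2, where its mean was -0.18 (adjusted p = 0.347 with columns 1 to 80 left out). Decorin had a mean of -0.05 on those arrays (adjusted p = 0.850), while its processed signals gave -0.47, so its size depended on the dye and background handling. For Bgn the processed signals gave -1.38.

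Among the glycoproteins and elastic fibre genes 4 of 6 were tested. Fn1, for fibronectin, had 2322, 1831 and 1834 in WT and 2182, 1239 and 2637 in KO, with ratios of -0.09, -0.38 and 0.51. Mfap5, a microfibril protein, had 4383, 2659 and 1507 in WT and 4400, 2562 and 2523 in KO, with ratios of -0.06, -0.20 and 0.56. In both genes array 3 stood apart on the side of higher KO, and the adjusted p was 0.981 and 0.816. Sparc, a collagen-binding protein, had 5146, 4421 and 4520 in WT and 4431, 3456 and 3919 in KO, lower in KO on each array in these signals. After loess its ratios were -0.25, -0.19 and 0.09 (mean -0.12, adjusted p = 0.616). The other Sparc probes were never well above background.

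Eln, which encodes elastin, had a ratio above 0 on each array. Its WT signals were 478, 89.3 and 214 and its KO signals 665, 192 and 266, higher in KO within each array. WT was above background on 2 of 3 arrays, so the gene was tested through its KO channel only. The ratios were 0.25, 0.13 and 0.10 (mean 0.16, SD 0.08, 95% interval -0.01 to 0.33; limma adjusted p = 0.390). It was 1 of 23 genes (4.35%) above 0 on all 3 arrays, against 17.5% of all genes. Below 0 on all 3 arrays were 2 of 23 (8.7%), Fmod and Col6a2, against 18.3% of all genes. Fbn1, for fibrillin, was not tested, and Postn, for periostin, had signals from 16.6 to 26.1, never well above background.

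Crosslinking and turnover genes gave 2 tested of 4. Mmp2, a gelatinase, had 1225, 1511 and 663 in WT and 1065, 811 and 805 in KO, with ratios of -0.26, -0.46 and 0.19 (mean -0.17, SD 0.33; limma adjusted p = 0.611). Loxl1, a lysyl oxidase, had 1194, 820 and 650 in WT and 1334, 720 and 1561 in KO, with its array 3 spot in columns 1 to 80, and a mean of 0.0021 (95% interval -0.16 to 0.17), which was 0.41 with processed signals and -0.02 with columns 1 to 80 left out. A dimmer Loxl1 probe, also in these columns, had ratios of -0.15, -0.05 and 0.04 and was not tested with all spots. Lox was never well above background, and Timp1, an inhibitor of metalloproteinases, was above it on arrays 1 and 2, where its mean was 0.02.

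Of the TGF-beta and matricellular genes, Ctgf (Ccn2), a matricellular target of TGF-beta, was the only one tested. It had 1808, 869 and 946 in WT and 1471, 1267 and 2613 in KO, with ratios of -0.31, 0.22 and 0.87, the widest spread of the set (SD 0.59). The value of 0.87 comes from columns 1 to 80, and without it the mean turned from 0.26 to -0.05. Thbs1 carried an outlier flag on array 1, and on the other arrays it was well above background in 0 WT channels and 1 KO channel. It was not tested, nor was it with outlier spots kept. Its signals were 630, 67.1 and 95.6 in WT and 1101, 134 and 316 in KO, the array 3 spot lying in columns 1 to 80. Tgfb1, read by 10 spots, was as a probe never well above background.

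All 5 tendon genes were tested and 0 passed. Their median ratio was -0.40 on array 1, -0.31 on array 2 and 0.10 on array 3. With columns 1 to 80 left out the array 3 median over 4 genes was 0.28, without Comp and with Tnmd from 1 spot. Thbs4, for thrombospondin 4 of tendon and the myotendinous junction, had 1697, 1908 and 583 in WT and 1194, 1336 and 761 in KO. It was lower in KO on arrays 1 and 2 and higher on array 3, with ratios of -0.41, -0.33 and 0.52 (mean -0.07, SD 0.51; limma adjusted p = 0.901), and its spot lies outside columns 1 to 80.

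Comp, for cartilage oligomeric matrix protein, had 6297, 2609 and 1219 in WT and 3740, 2014 and 2573 in KO. Its ratios were -0.72, -0.31 and 0.02 (mean -0.34, SD 0.37, 95% interval -0.66 to -0.01; limma adjusted p = 0.347). The last value comes from columns 1 to 80, where the processed signals gave 1.08, and with processed signals the mean over 3 arrays was -0.02 (SD 0.97, adjusted p = 0.989). On the other arrays its mean was -0.52 (adjusted p = 0.0909 with those columns left out). Scx, for scleraxis, had 3474, 3343 and 2296 in WT and 3722, 2452 and 2921 in KO, with ratios of -0.03, -0.38 and 0.44. Mkx, for mohawk, had 429, 402 and 39.7 in WT and 379, 462 and 124 in KO, with WT above background on arrays 1 and 2 only, and ratios of -0.08, 0.16 and 0.10. Their means were 0.01 and 0.06, with adjusted p of 0.987 and 0.787. The mean of Mkx was 0.56 with processed signals (adjusted p = 0.586), and that of Scx was -0.21 on arrays 1 and 2 alone.

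Tnmd, for tenomodulin, a marker of mature tenocytes, was read by 10 spots per array. On array 1 the median signal was 1195 in WT and 658 in KO, and all 10 spots had a ratio below 0, from -0.54 to -0.15. On array 2 the medians were 789 and 459, and the 9 spots used were all below 0, from -0.34 to -0.16. On array 3 the medians were 57.0 and 82.2, with 0 of 10 WT spots well above background. Only 1 Tnmd spot lies outside columns 1 to 80, in column 85, and there WT was 112 and KO 272. The mean ratios per array were -0.40, -0.26 and 0.09 (mean -0.19, SD 0.25; limma adjusted p = 0.489, or -0.15 and 0.616 with columns 1 to 80 left out). The 10 Col4a1 spots of array 3, spread over both parts, had WT signals of 1621 to 4453, all well above background.

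**Figure D3:**
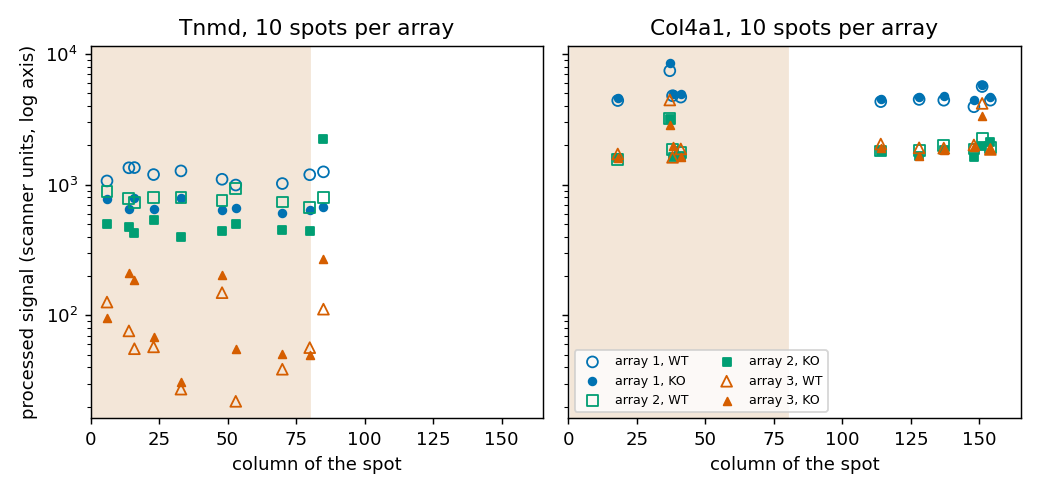
Processed signals, on a log axis, of the 10 Tnmd spots and the 10 Col4a1 spots by column of the array, with WT open, KO filled and columns 1 to 80 shaded. Tnmd is at about 1195 (WT) and 658 (KO) on array 1 and near 57.0 and 82.2 on array 3, where 9 of its spots lie in the shaded columns, while Col4a1 has like levels in both parts.

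The low WT level on array 3 was shared by genes with spots outside columns 1 to 80. Over 15 such genes, the WT signal on array 3 differed from the mean of arrays 1 and 2 by a median of -1.12 (log2), against 0.15 for all genes tested there. For KO the medians were -0.41 and 0.20. The WT difference was -1.63 for the 3 tendon genes, -1.25 for the 6 collagens and -0.12 for the 4 glycoproteins and fibre genes. In Thbs4 it was -1.63 in WT and -0.73 in KO, and in Col1a2 -1.20 and -0.30. These are levels between arrays, scaled by the scanner software within each array, and they were not tested.

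**Figure D4:**
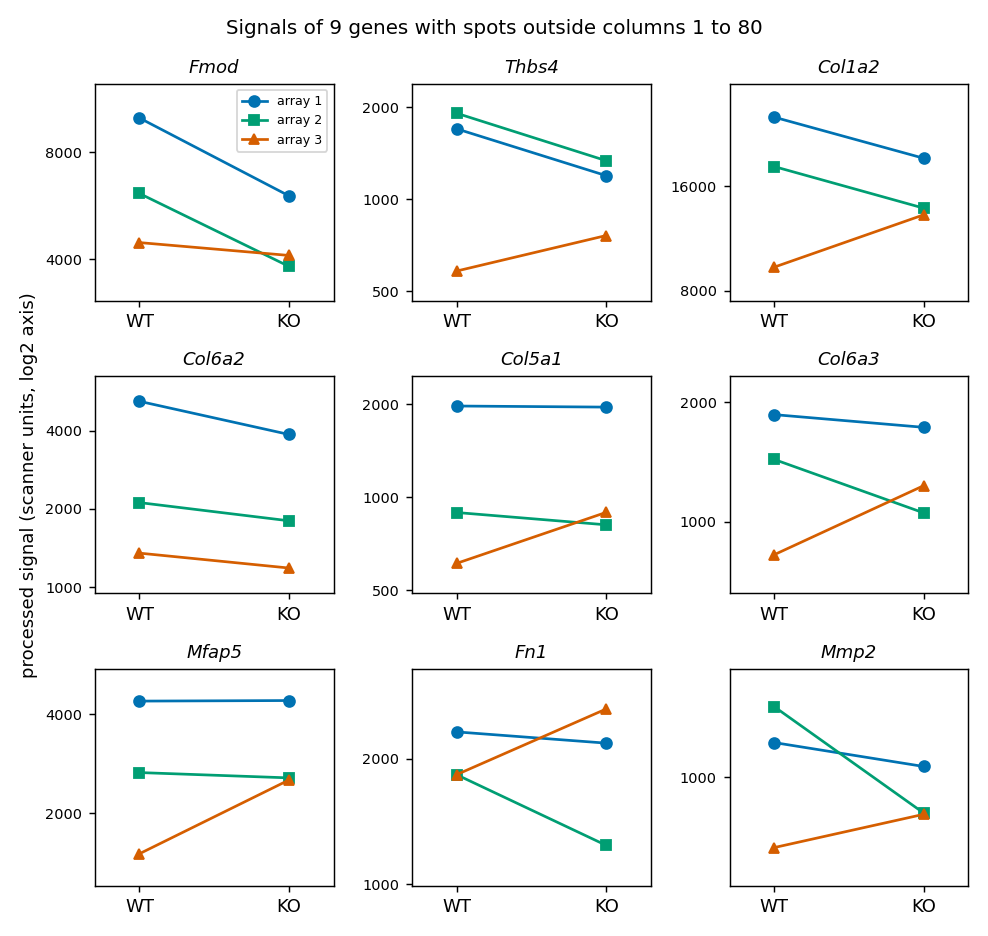
Processed signals (scanner units, log2 axis) of WT and KO on each array for 9 of the 15 genes whose spots lie outside columns 1 to 80, with a line joining the channels of an array. The 9 are examples, so their count is not a share of the 15. Of those not drawn, Sparc falls on array 3 (4520 to 3919) and Col14a1 is flat there (161 to 160). Eln rises on all 3 arrays, Col3a1 and Scx rise on array 1 as well as array 3, and Mkx on array 2 as well as array 3. In 7 of the 9 the array 3 line slopes up, while those of arrays 1 and 2 slope down or lie nearly flat, and its WT end is the lowest of the WT points or level with the lowest.

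On arrays 1 and 2 alone 27 of the 34 genes could be tested, and 0 passed in limma, as did 0 of 9620 genes over the array. At an unadjusted p under 0.05, 11 of 27 were lower in KO (40.7%), against 8.27% of all genes, and 1 was higher, Eln (3.7%, against 5.45%). Eln had a WT signal of 89.3 on array 2 and entered the test of 3 arrays through KO only. In the top 25% of genes by intensity there, 6 of 12 of these genes and 14.9% of all genes were lower. These arrays were set apart after their values were seen. An exact sign-flip test of 1 gene cannot go below a two-sided p of 0.25 with 3 arrays, and that limit is higher still with arrays 1 and 2 alone.

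**Figure D5:**
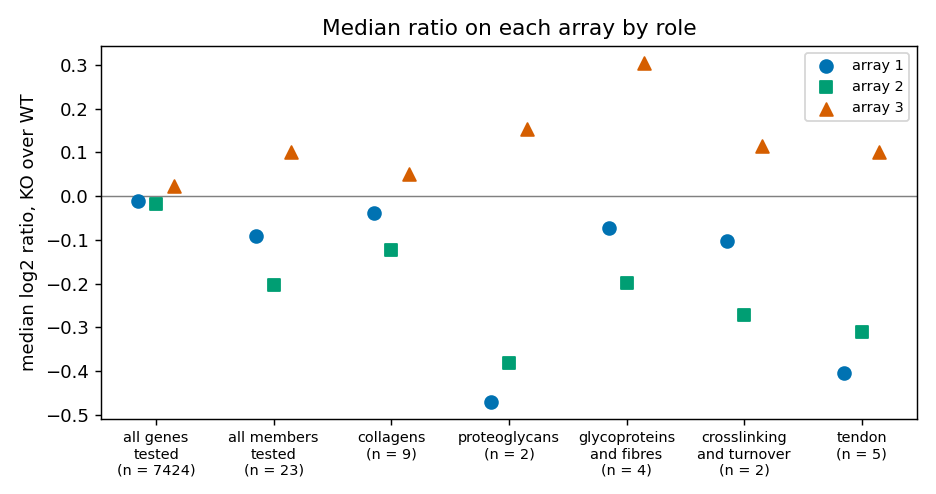
Median log2 ratio of KO over WT on each array, by role, for the genes tested. With all spots each role shown has its array 3 median above those of arrays 1 and 2, which did not hold for collagens with processed signals (-0.013 on array 3, -0.012 on array 1). With columns 1 to 80 left out, the proteoglycan value on array 3 (-0.18) is that of 1 gene, Fmod. It is not like for like with the medians over 4 genes (-0.18 on array 1, -0.17 on array 2), and Fmod itself is at -0.72 and -0.64 there. Tendon genes are at -0.40, -0.31 and 0.10, while all genes are at -0.01, -0.02 and 0.02.

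Other genes of the same pathways showed 0 calls, beside 0.0404% of all genes (3 of 7424), so these lists lie near that share. With columns 1 to 80 of array 3 left out they also showed 0 calls, beside 0.881% of all genes. None passed among 9 tested genes of collagen processing, 9 of basement membranes and laminins, 8 of TGF-beta signalling, 5 of matrix turnover, 17 other matrix proteins and 5 matrix receptors. P4hb, a subunit of prolyl 4-hydroxylase, had ratios of -0.25, -0.51 and -0.18 (adjusted p = 0.192), and Pcolce, which enhances procollagen cleavage, had -0.51, -0.44 and 0.15. Hspg2, for perlecan, had 0.42, 0.29 and 0.11 (adjusted p = 0.240), and Lama2, a laminin chain of the fibre's basement membrane, had -0.14, -0.30 and -0.25 (adjusted p = 0.249), both with array 3 spots in columns 1 to 80. Without those spots Hspg2 was at 0.35 (adjusted p = 0.108) and Lama2 at -0.22 (adjusted p = 0.290). Tgfbr3 had 0.11, 0.08 and 0.31, Ctsk, for cathepsin K, had -0.20, -0.23 and -0.10, and Itgb1bp2, for melusin, had -0.16, -0.57 and -0.14. These 7 genes were picked for small p within their lists, and each had an adjusted p above 0.05.

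Markers of other cells were read beside these genes. The 11 tenocyte and myotendinous markers, which include 6 genes of the set, had summed WT signals of 38375, 23461 and 11510 and summed KO signals of 26870, 17329 and 15308. The 11 fibroblast markers summed to 20996, 18221 and 21735 in WT and 19638, 16672 and 29422 in KO, with Dpt, Pcolce2 and Pdgfra never well above background. The 10 muscle fibre markers, all detected, ranged from 253684 to 340475 in WT and from 272179 to 281571 in KO. Macrophage markers (9) summed to 15899, 10403 and 7753 in WT and 10938, 7469 and 6967 in KO, with Lyz2 and Ptprc never above background, and smooth muscle markers (6) to 19550, 44472 and 19800 and 20676, 23800 and 23358. Red blood cell markers (4) summed to 18533, 11250 and 12330 in WT and 32759, 13946 and 24865 in KO. Endothelial (7, with Esam and Tek never above background), adipocyte (7, with Cidec and Lep never above it) and Schwann cell markers (5) reached at most 10589, 7721 and 9889 in WT and 17619, 8742 and 6407 in KO. Sums include spots in columns 1 to 80. With all spots 0 genes of these 9 marker lists passed in limma, beside 0.0404% of all genes. With those columns left out Atp2a2 of the muscle fibre list passed on arrays 1 and 2 (mean -0.94, limma adjusted p = 0.0340), beside 0.881% of all genes. The part of these cells in the results above was not tested.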

How the data were processed

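Each array set 1 WT (Cy3) against 1 KO (Cy5) sample. RNA was isolated in Trizol and amplified with Agilent's LowInput QuickAmp kit, per the labels' protocols. The deposited scanner files give the intensity, local background, flags and processed signal of each spot, and their headers name Feature Extraction 12.0.3.1 (the submitters' processing notes name 11.5). The authors' deposited series matrix gives log10 ratios that equalled the scanner's to within 0.0050.

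Median spot intensities were corrected with normexp (offset 50), loess-normalised within arrays with control and outlier spots at weight 0, and averaged per probe. A probe needed a value on all 3 arrays and to be well above background on all 3 in 1 channel (8391 of 55681 probes). Names came from RefSeq genes of GRCm38.p6, and the brightest probe stood for a gene. The mean log2 ratio was tested against 0 with limma 3.58.1 (lmFit, eBayes, Benjamini-Hochberg) in R 4.3.3, with files read by version 1.17.8 of data.table. SDs are between arrays, and the number of arrays limits the precision. On simulated arrays the direction and the offset-shrunken size of known changes were recovered, but bright unchanged probes reached small unadjusted p-values too often and, with unequal dyes, made false calls, with trended variance too, so unadjusted counts are set beside those of all genes and of the brightest ones, a comparison chosen after seeing the data. A fit with trended, robust variance was one alternative.

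The genes named were all members, Mettl21c and, in each list of related genes or markers (collagen processing, basement membrane, TGF-beta signalling, turnover, other matrix, receptors, fibroblast, tenocyte, smooth muscle, endothelial, macrophage, adipocyte, Schwann, red blood cell, muscle fibre), some of the 3 with the smallest p. The members and lists were chosen with earlier results of these data known.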

Additional observations from a re-analysis of the deposited data

How the results depend on the processing

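No member passed in the main analysis (0 of 23), nor under any alternative or left-out array, except that centring arrays on the median of the tested probes without loess called 8 of 23 (Col1a2, Col4a1, Col6a1, Col6a2, Comp, Fmod and Sparc lower, Eln higher) where 35.8% of all genes passed. Genes called higher over the array numbered 0 in the main analysis, 3 with an offset of 16, 1014 with centring, 41 with trended robust variance, 48 with columns 1 to 80 of array 3 left out and 0 to 5 with an array left out. Genes called lower numbered 3 in the main analysis, 0 with processed signals, 22 with an offset of 16, 1644 with centring, 0 with no filter, 0 with both channels above background, 1 with averaged probes, 1 with outlier spots kept, 44 with trended robust variance, 0 with the series matrix, 30 with columns 1 to 80 left out and 0 to 11 with an array left out. At an unadjusted p under 0.05, limma gave 412 lower genes with processed signals, 1241 with no filter, 529 with both channels above background and 413 with the series matrix, against 559 in the main analysis. Taking the 6 channels as separate samples, without the replicate block that the pairing within an array gives, called 0 genes (164 lower and 113 higher unadjusted), and Mettl21c was at -2.45 (adjusted p = 0.770). Mettl21c also missed the threshold at -6.23 with processed signals (adjusted p = 0.0680), -6.22 with the series matrix (0.0682), -2.45 with no filter (0.172) and without array 3 (0.0557), with -2.69 to -2.21 over left-out arrays. With centring the collagen median was -0.11 and the proteoglycan median -0.61. The causes were not tested.

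Some means changed sign, among them larger ones such as Tnnt1 (0.40 in the main analysis), Tnnc1 (0.28), Tagln (-0.41), Ctgf (0.26), Fabp4 (0.26) and Pi16 (-0.23). With columns 1 to 80 left out these were Ctgf -0.048, Col4a2 0.11, Col5a1 -0.0087, Fn1 -0.016, Loxl1 -0.017, Lum -0.17, Retn -0.093 and Scx -0.022. With centring they were Cnn1 0.029, Col14a1 0.024, Col3a1 -0.012, Col4a2 0.18, Col5a1 -0.0021, Col6a1 -0.36, Ddr2 0.075, Fabp4 -0.016, Fn1 -0.20, Lamc1 -0.31, Lum -0.39, Mfap5 -0.12, Scx -0.24, Tnnc1 -0.27 and Tnnt1 -0.27. With processed signals they were Col14a1 0.011, Col6a1 -0.096, Col6a3 0.0080, Fn1 -0.043, Lamc1 -0.019, Ltbp3 0.25, Pi16 0.050, Scx -0.00012 and Tnnt1 -0.036, and with the series matrix Col14a1 0.011, Col6a1 -0.096, Col6a3 0.0082, Fn1 -0.043, Lamc1 -0.019, Ltbp3 0.25, Pi16 0.050, Scx -0.00061 and Tnnt1 -0.036. With an array left out the ranges that crossed 0 were Adamts1 -0.27 to 0.0038, Ctgf -0.048 to 0.54, Cldn5 -0.30 to 0.025, Cnn1 -0.27 to 0.18, Col14a1 -0.053 to 0.0032, Col1a2 -0.34 to 0.096, Col3a1 -0.027 to 0.22, Col4a2 -0.14 to 0.11, Col5a1 -0.097 to 0.079, Col6a1 -0.036 to 0.13, Col6a3 -0.22 to 0.066, Fn1 -0.23 to 0.21, Loxl1 -0.023 to 0.046, Lum -0.17 to 0.13, Mbp -0.010 to 0.072, Mfap5 -0.13 to 0.25, Retn -0.093 to 0.26, Scx -0.21 to 0.21, Tagln -0.70 to 0.0085 and Thbs4 -0.37 to 0.095. Fmod, Col6a2, Comp, Sparc, Mmp2, Tnmd, Col4a1, Eln and Mkx kept their sign in every setting in which they were tested, but not their size. Eln, Mkx and Tnmd, tested through KO only, dropped out where both channels had to be above background. For Eln and Mkx that filter favours a ratio above 0, so their steady sign is no separate support. Comp went from -0.34 to -0.016 with processed signals, Mmp2 ranged from -0.36 to -0.033 and Sparc from -0.44 to -0.053. Col4a1 ranged from -0.25 to -0.012, Eln from 0.11 to 0.63 and Mkx from 0.012 to 0.56. A probe near background in either channel gives a ratio that the offset shrinks.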
